A study of Mus musculus with 6 samples.

Results

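The replication-dependent histone genes described here are the mouse genes whose symbols begin with Hist1h, Hist2h, Hist3h or Hist4h. Members were chosen by that name alone. An entry of the deposited gene tables was kept where its status was OK in all 6 libraries, FPKM (fragments scaled by transcript length and by mapped fragments) were summed per symbol, and a symbol was kept where it was above 0 in at least 1 library. This gave 63 of 23091 gene symbols, out of 68 symbols with such a name. Hist1h2ap and Hist2h2aa2 had no entry of status OK, and Hist1h1t, Hist1h2aa and Hist1h2bh were listed at 0 in all 6 libraries. The 63 members comprised 15 H2A, 18 H2B, 12 H3, 13 H4 and 5 H1 genes. On the mm9 build of the files, 50 of them lay between 21807632 and 24026025 on chromosome 13 (the Hist1 cluster), 9 on chromosome 3, 3 on chromosome 11 and 1 on chromosome 6. The name also takes in Hist1h2ba, a testis histone, and Hist3h2bb-ps, a pseudogene.

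RNA was sequenced from CD4 T cells grown under Th9 conditions, which favour helper T cells that make interleukin 9, with or without interleukin 1β (IL-1β). Naive T cells came from the spleen and nodes of wild-type C57/Bl6j mice aged 7 weeks, and every culture held plate-bound CD3 and CD28 antibodies, 20 ng/ml IL-4, 2 ng/ml TGFβ and an antibody that blocks interferon γ. The 6 groups had 1 library each: cells given 10 ng/ml IL-1β and cells without it, at 1 h of culture, at day 3 of culture, and in vivo, where CD45.2 cells cultured for 3 days were injected into CD45.1 hosts and recovered by sorting after 1 week. RNA of both 1 h libraries was depleted of ribosomal RNA, and that of the other 4 was selected for poly(A) tails. The sources used here give neither the number of mice behind a library nor the tissue from which the injected cells were sorted.

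Replication-dependent histone genes are transcribed mainly in S phase, when newly copied DNA has to be packed into nucleosomes. H2A, H2B, H3 and H4 form the core of the nucleosome, and H1 binds the linker DNA between nucleosomes. Most of their mRNAs end in a short stem-loop in place of a poly(A) tail; the stem-loop binding protein Slbp holds it, and a particle containing U7 RNA guides the cut behind it. The replication-independent histones H2A.Z and H3.3 come from genes with ordinary polyadenylated mRNAs and are made through the whole cell cycle. That need not hold for each gene of the replication-independent list used below, which includes H2afx and Cenpa.

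The stem-loop is shown first because the kind of mRNA end decides whether a molecule can be caught by its tail, and the libraries differ in just that step. The annotated transcripts of the members (GENCODE M21, GRCm38) were searched after the stop codon for GGNNNNTTNNNNNNCC with all 6 bases of the stem paired and a loop of 4 bases. A site was found in 40 of the 63 members (63.5%), and in 40 of the 47 (85.1%) with at least 40 annotated bases after the stop. Searched over whole transcripts, 185 of 55341 annotated symbols (0.334%) held the same pattern, 44 of them histone genes with these names. Of 14 replication-independent histone genes only H2afx held it. A total of 6 forms of the stem-loop occurred, and a gene of each form is given here from 5′ to 3′ as DNA, with the stem and loop in capitals.
Hist1h2ao: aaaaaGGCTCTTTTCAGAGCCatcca
Hist1h4d: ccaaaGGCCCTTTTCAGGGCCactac
Hist1h3c: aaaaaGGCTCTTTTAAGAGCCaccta
Hist2h4: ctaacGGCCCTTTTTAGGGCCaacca
Hist1h4b: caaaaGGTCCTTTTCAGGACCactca
Hist2h2ac: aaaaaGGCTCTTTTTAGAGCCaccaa
The form of Hist1h2ao was shared by 23 members, among them Hist1h2ag, Hist1h2bj and Hist1h1c. The form of Hist1h4d was found in 7 members, all of them H4 genes. The form of Hist1h3c occurred in 5 members, those of Hist2h4 and Hist1h4b in 2 each, and that of Hist2h2ac in 1. Of the 40 members with a site, 19 had an annotated transcript that stopped within 60 bases of the loop, and 21 ran on for more than 60 bases.

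The members are short and alike, which limits how far a value belongs to 1 gene. Of 62 members with an annotated coding sequence, 53 shared a run of at least 100 identical bases with another member of their class. The coding sequences of Hist1h2ao and Hist1h2ag differed at 3 of 393 bases, with a shared run of 362 bases. Those of Hist1h4m and Hist1h4n shared all 312 bases. In each library between 4 and 11 members had exactly the FPKM of another member (for example Hist1h4c and Hist1h4j, both 11.4 FPKM at day 3 with IL-1β). The sources used here do not say how reads were divided between such copies. The values of near-identical members are therefore uncertain 1 by 1, and class sums are given beside them.

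With 1 library a group no difference within a stage could be tested. A gene was compared if either library of the pair had it at 5 FPKM or more. It was counted as higher or lower if (FPKM + 1) differed 2-fold or more and the deposited intervals did not overlap. Higher and lower, used of counted genes, mean this. Where a listed 0 carried an interval of 0 to 0, any lower bound above 0 in the other library met the interval part of the rule. Log2 ratios are of (FPKM + 1), which understates the change of low genes, and in the results none is given for a single gene that 1 library lists at 0. Such genes do enter medians and counts of ratios, where their size depends on the added 1. Of the members, 44 reached 5 FPKM in some library and 19 in none, and 25 were above 0 in all 6.

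Facts of the libraries bear on every result. Between 7313 and 8154 symbols reached 5 FPKM at day 3 and in vivo, against 765 at 1 h with IL-1β and 631 at 1 h without it. All 7 T cell markers (Cd3e, Cd3d, Cd3g, Cd4, Lck, Cd2, Cd5) were above 0 in every library, with summed levels of 65.8 and 50.6 FPKM at 1 h, 2227 and 1973 FPKM at day 3, and 1632 and 1933 FPKM in vivo (with and without IL-1β). Markers of other cells were present at every stage. The 5 B cell markers summed to 18.7 and 22.3 FPKM at 1 h, with and without IL-1β. At day 3 they summed to 20.99 and 21.2 FPKM. In vivo they summed to 26.4 FPKM with IL-1β against 42.5 FPKM without, with 1 of 3 compared lower. Sums of the 4 CD8 and natural killer markers were 7.13 and 9.93 FPKM at 1 h and 22.8 and 12.6 FPKM at day 3. In vivo these were 10.7 and 15.1 FPKM, with 0 of 1 counted. Both lists thus had the lower in vivo sum with IL-1β, unlike the lists that follow. The 5 lung epithelial markers summed to 17009 FPKM with IL-1β against 6563 FPKM without in vivo, with 4 of 4 compared higher, against 13.0 and 12.5 FPKM at day 3 and 0 at 1 h. The 6 myeloid markers summed to 1651 FPKM with IL-1β against 541 FPKM without in vivo, with 2 of 4 compared higher, and the 5 stromal and endothelial markers to 100.4 and 35.8 FPKM, with 4 of 5 higher. The erythroid markers, of which Hbb-b1 was listed at 0 throughout, summed to 234 and 217 FPKM at 1 h, above the T cell markers there, to 1.69 and 0.319 FPKM at day 3, and to 526 and 358 FPKM in vivo, with and without IL-1β. Their part in the histone values was not tested. In such mixed RNA, fewer cells of a type and less RNA per cell cannot be told apart.

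Summed over all members, histone RNA stood at 408 FPKM with IL-1β against 439 FPKM without at 1 h. At day 3 the sums were 2414 FPKM with IL-1β against 1839 FPKM without. In vivo they were 1145 FPKM with IL-1β against 2509 FPKM without. The sum was thus 1.31 times as high with IL-1β as without at day 3, and 0.457 times as high in vivo. Of the summed FPKM of all symbols, members held 0.178% with IL-1β and 0.308% without at 1 h. These shares were 0.589% and 0.510% at day 3, and 0.311% and 0.694% in vivo. H2A genes held most of the histone sum in the poly(A)-selected libraries. Their share was 90.8% and 91.9% at day 3 and 80.6% and 93.5% in vivo, with and without IL-1β. At 1 h their share was 23.4% with IL-1β and 10.7% without, and H4 genes held 51.2% and 62.1%. Scaled to equal upper quartiles, the sums of day 3 (1149 and 900.5) were below those of 1 h (1530 and 1652), with and without IL-1β, so their order depends on the scaling. H4 shares after 1 h lay between 1.65% and 8.56%.

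**Figure D1:**
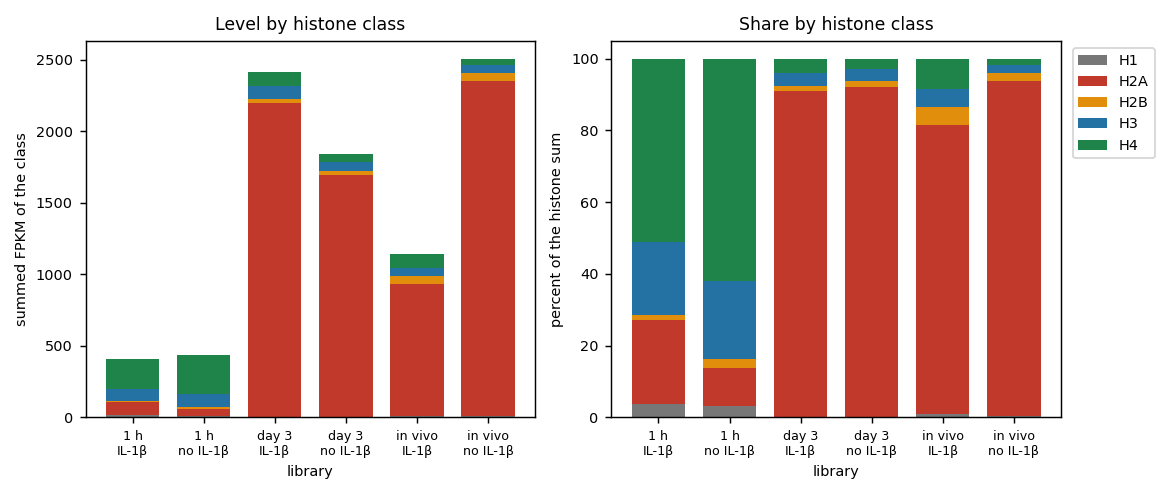
Summed FPKM of the 5 histone classes in each library (left, linear axis from 0) and the same sums as percent of all histone FPKM (right). H4 is the largest class in both 1 h libraries, and H2A is the largest in the other 4, from 80.6% to 93.5% of the sum.

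A single H2A gene carried most of that class. Hist1h2ao, which encodes a canonical H2A, is listed at 2 places of the Hist1 cluster (mm9, chromosome 13, 21902236 to 21902749 and 21924931 to 21925444), and its summed level was 7.31 and 0 FPKM at 1 h, 1716 and 1311 FPKM at day 3, and 694 and 1944 FPKM in vivo, with and without IL-1β. Both places gave nearly equal values, for example 347 and 347 FPKM in vivo with IL-1β. Hist1h2ap, left out for its status, lies inside both. Hist1h2ao made up 60.6% to 77.5% of the histone sum at day 3 and in vivo. Without it the sums were 698 and 528 FPKM at day 3 and 451 and 565 FPKM in vivo, with and without IL-1β.

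Hist1h2ag, the next in level, stood at 201 and 179 FPKM at day 3 and at 86.9 and 210.1 FPKM in vivo, with and without IL-1β. Its FPKM lay above its own deposited upper bound in all 4 of these libraries, a fault of the deposited values that also touches every call made from those bounds. At day 3 with IL-1β the same held for Hist1h2ai, Hist1h2ah and Hist1h2ad. Hist1h2ai (56.3 and 40.5 FPKM at day 3), Hist1h2ah (53.7 and 40.4 FPKM) and Hist1h2ad (54.8 and 37.7 FPKM) followed, again with and without IL-1β. All encode canonical H2A from the Hist1 cluster. These 5 genes stood at 7.31 FPKM or less at 1 h, where the H2A gene with the highest value was Hist2h2aa1, at 19.9 FPKM with IL-1β against 20.0 FPKM without.

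**Figure D2:**
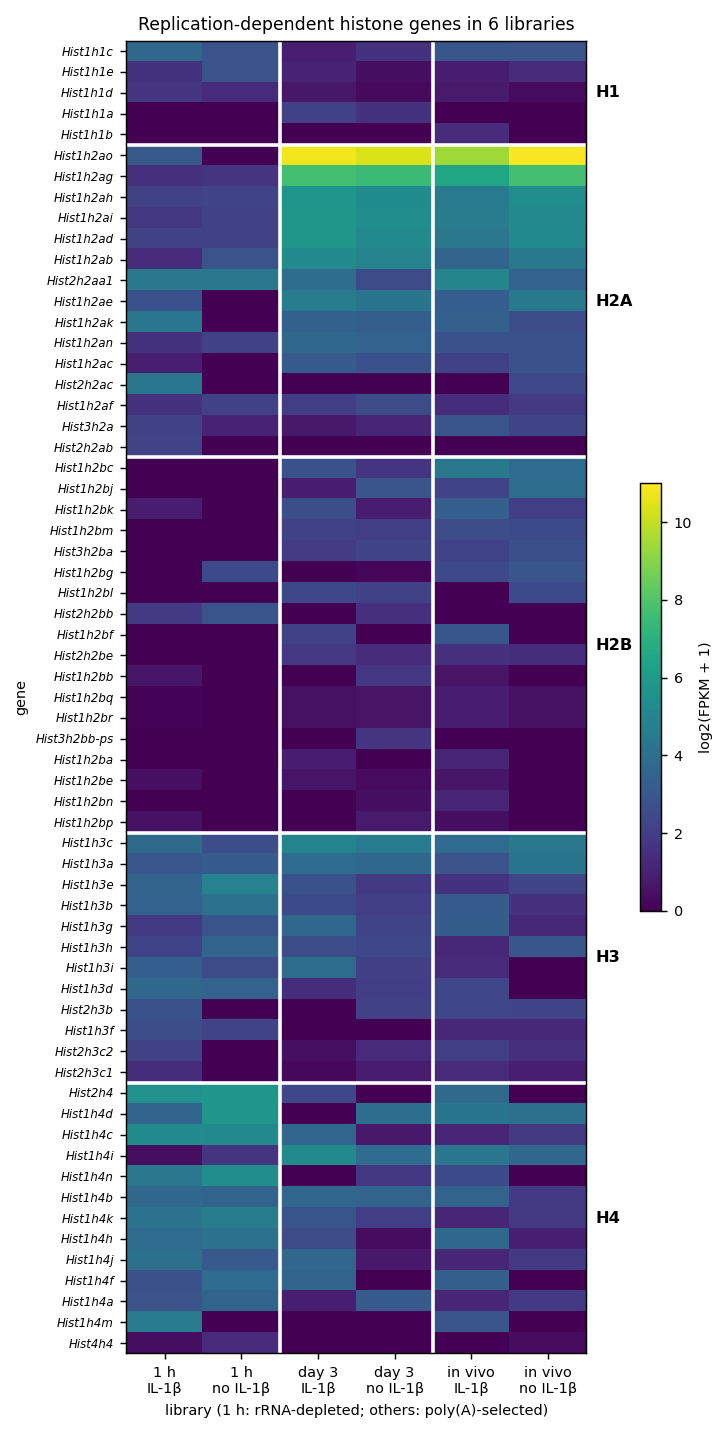
Level of all 63 members (rows, by class) in the 6 libraries (columns), as log2(FPKM + 1). Several Hist1 H2A genes, such as Hist1h2ao and Hist1h2ag, are high at day 3 and in vivo and low at 1 h. Others differ: Hist1h2ak is highest at 1 h with IL-1β, at 18.7 FPKM, and Hist1h2af stays at 4.86 FPKM or less throughout. Most H2B genes are dark throughout, and several H4 genes are highest at 1 h.

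H2B, which pairs with H2A in the nucleosome, did not show comparable levels. The 18 H2B members summed to 30.3 and 30.5 FPKM at day 3 and to 60.03 and 53.6 FPKM in vivo, with and without IL-1β. At 1 h only 7 of 18 with IL-1β and 2 of 18 without were above 0. Low H2B values were also seen in gene pairs that start back to back. In 8 pairs of members the 150 bases before the 2 start sites overlapped on opposite strands, and each was an H2A gene with an H2B gene. Hist1h2bj, across from Hist1h2ag, stood at 0.834 and 6.42 FPKM at day 3 and at 3.75 and 13.8 FPKM in vivo, with and without IL-1β. Hist1h2bf, across from Hist1h2ad, stood at 3.34 and 0 FPKM at day 3 and at 6.67 and 0 FPKM in vivo. Hist1h2bq, across from Hist1h2ao, stood at 0.844 FPKM or less in every library.

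Because the pairs share their upstream DNA, it is printed for Hist1h2ao and for the Hist1h2ag and Hist1h2bj pair, whose windows overlap by 52 bases. Each is the 150 bases before the annotated start (RefSeq, GRCm38.p6), written on the gene's own strand, with CCAAT or its reverse complement in capitals. The windows are chr13:21810217-21810366 on the plus strand, chr13:22042950-22043099 on the minus strand and chr13:22043048-22043197 on the plus strand.
Hist1h2ao: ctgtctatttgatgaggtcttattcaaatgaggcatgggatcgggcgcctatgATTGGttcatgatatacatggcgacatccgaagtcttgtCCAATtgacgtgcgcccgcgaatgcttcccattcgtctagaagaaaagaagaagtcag
Hist1h2ag: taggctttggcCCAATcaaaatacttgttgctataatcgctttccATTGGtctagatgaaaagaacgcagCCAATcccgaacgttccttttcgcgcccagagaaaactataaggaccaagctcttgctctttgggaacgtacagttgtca
Hist1h2bj: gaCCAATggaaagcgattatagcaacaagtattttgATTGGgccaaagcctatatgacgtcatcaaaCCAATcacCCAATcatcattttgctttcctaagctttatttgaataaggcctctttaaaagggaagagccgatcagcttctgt
A promoter was matched for 57 members, and 3 motifs were searched on both strands of the 250 bases before the start. CCAAT stood in 80.7% of member promoters and in 34.5% of all 27025 promoters; it stood in all matched H2A, H2B and H1 promoters but in 25% of those of H4. The octamer ATTTGCAT was found in 21.1% of member promoters against 1.61% of all, in 6 of 15 H2A and 6 of 15 H2B promoters and in no H1, H3 or H4 promoter. TATAAA stood in 49.1% against 13.0%. These matches are letters in a window and not evidence of binding, and matches of different motifs can overlap.

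The comparison of IL-1β with no IL-1β at day 3 asked how the cytokine changed the cells after 3 days of differentiation. H2A, H3 and H4 sums were all higher in value with IL-1β: 2193 against 1691 FPKM for H2A, 86.7 against 59.2 FPKM for H3, and 98.4 against 54.0 FPKM for H4. H2B stood at 30.3 FPKM with IL-1β against 30.5 FPKM without, and H1 was low in both, at 5.94 and 4.59 FPKM. No member was counted as higher, against 1.29% of the 7962 symbols compared. Of 28 members compared 1 was counted as lower, against 2.15% of all, so the count was near the background in both directions. That member was Hist1h4d, an H4 gene, listed at 0 (interval 0 to 0) with IL-1β and at 14.7 FPKM (interval 1.77 to 21.2) without. All 11 H2A members compared had a log2 ratio above 0 (2 of 11 with the trend on transcript length removed), with a median of 0.40, and the 28 members had a median of 0.45 against -0.05 over all symbols.

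Transcript length moved with this difference. At day 3 the median log2 ratio with IL-1β over without was 0.58 for the 134 compared symbols with transcripts under 700 bases, and -0.25 for those of 3000 bases or more. By their longest annotated transcript 39 of the 63 members are under 700 bases and 24 are longer, up to 7425 bases. With the trend on length removed, 2 of the 11 H2A members had a log2 ratio above 0 and 9 below, with a median of -0.18. Hist1h2ao then had -0.21 and Hist1h2ag -0.43. The median of all 28 members was -0.05. The higher H2A values with IL-1β at day 3 thus turned with this correction. Hist1h4d, listed at 0 with IL-1β, kept its ratio by construction, because the correction was applied to the IL-1β values only. Without that correction the log2 ratios of the most abundant members were 0.39 for Hist1h2ao, 0.17 for Hist1h2ag, 0.47 for Hist1h2ai and 0.53 for Hist1h2ad. The intervals of Hist1h2ao were apart, 1542 to 1893 with IL-1β and 1166 to 1457 without, but its ratio was under 2-fold. Those of Hist1h2ag, Hist1h2ai and Hist1h2ad overlapped.

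In vivo the cells that had been cultured with IL-1β had lower H2A values. Hist1h2ao stood at 694 FPKM (573 to 813) with IL-1β against 1944 FPKM (1741 to 2150) without, a log2 ratio of -1.48. Hist1h2ag stood at 86.9 FPKM against 210.1 FPKM, a log2 ratio of -1.26. The FPKM of Hist1h2ag with IL-1β lies above its own interval of 28.6 to 71.5 and inside that of the library without IL-1β, 85.2 to 166, so that its call rests on faulty bounds. These were the 2 members counted as lower of 31 compared (6.45%), against 3.48% of all 8639 symbols compared; no member was counted as higher, against 6.23%. Of 12 H2A members compared 8 had a log2 ratio below 0, with a median of -0.75, against 0.03 over all symbols. The exceptions were Hist2h2aa1, at 30.8 FPKM with IL-1β against 10.1 FPKM without, Hist1h2ak, at 9.23 and 5.11 FPKM, Hist3h2a, at 6.22 and 3.95 FPKM, and Hist1h2an, at 5.85 and 5.75 FPKM. All 4 had overlapping intervals.

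H4 genes went the other way in value. The H4 sum was 98.0 FPKM with IL-1β against 41.4 FPKM without. Over all 13 H4 members, 8 had a log2 ratio above 0 and 5 below. The 7 compared were all above 0, but 5 of them reached 5 FPKM only in the IL-1β library, so that this count was set in part by the limit. Hist1h4h stood at 12.2 FPKM with IL-1β against 0.941 FPKM without. Hist2h4, Hist1h4f and Hist1h4m reached 12.9, 9.07 and 6.42 FPKM with IL-1β and were listed at 0 without it. None of these was counted, since their intervals were wide and touched or overlapped. The H2B sum was 60.03 against 53.6 FPKM and the H3 sum 54.9 against 59.8 FPKM, so the difference in the total lay in H2A. For transcripts under 700 bases the median log2 ratio in vivo was 0.02, and with the length trend removed Hist1h2ao had -1.38 and the H2A median was -0.72. Lung epithelial and myeloid RNA was also higher with IL-1β in this pair, by the sums given above, while T cell markers summed to 1632 against 1933 FPKM; their part in the histone values was not tested.

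**Figure D3:**
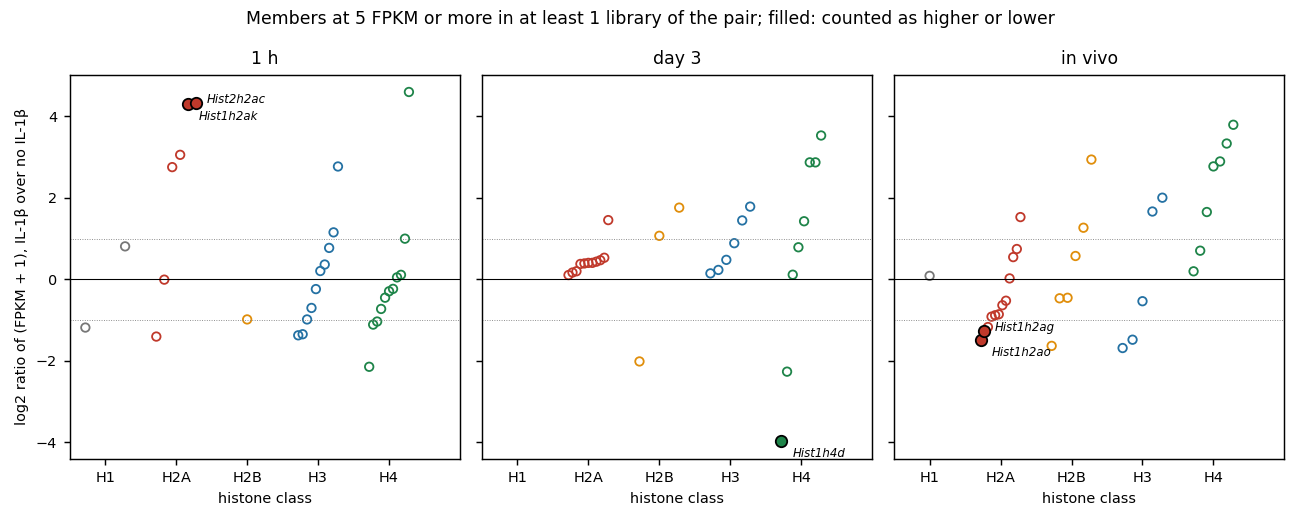
Log2 ratio of (FPKM + 1), IL-1β over no IL-1β, of each member that reached 5 FPKM in at least 1 library of the pair, by histone class and stage; dotted lines mark 2-fold and filled points were counted. All 11 H2A points lie above 0 at day 3 (2 of 11 once the length trend is removed) and 8 of 12 lie below 0 in vivo, where the 7 H4 points lie above 0; 5 of these 7 reached 5 FPKM only with IL-1β, and of all 13 H4 members 8 lay above 0 and 5 below.

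**Figure D4:**
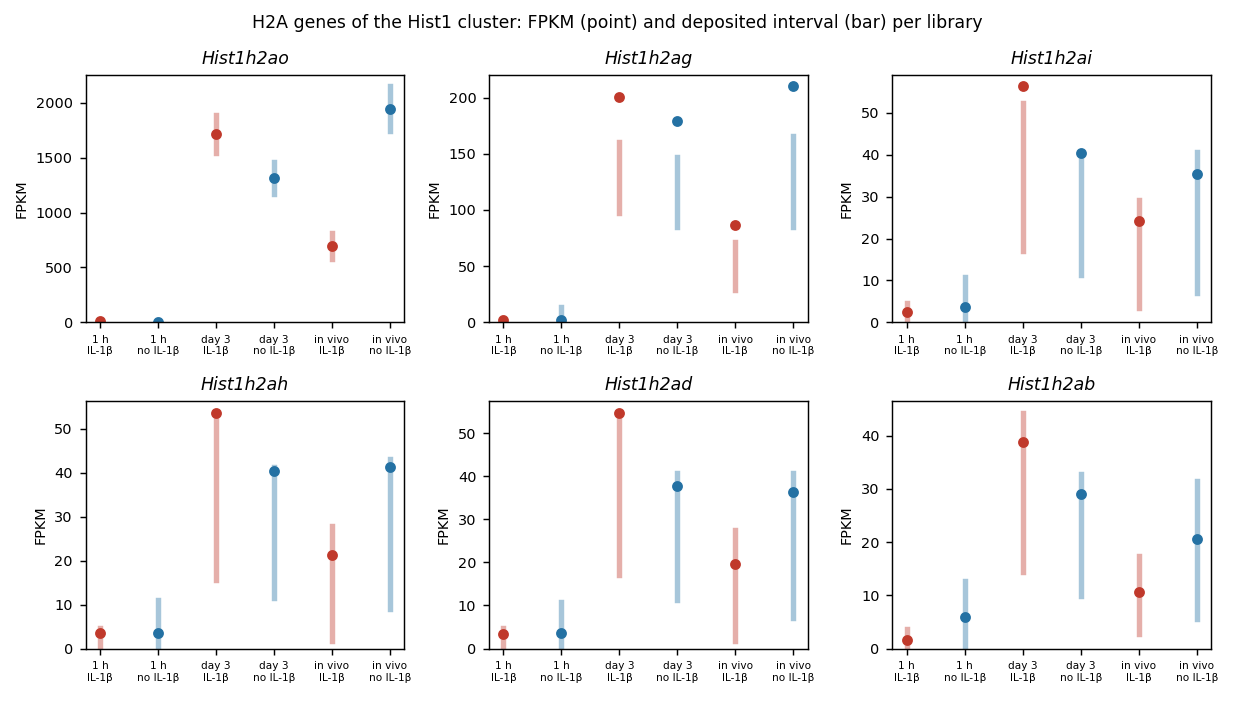
FPKM (points) and deposited interval (bars) of the 6 H2A genes of the Hist1 cluster with the highest levels, in the 6 libraries; red is IL-1β and blue is no IL-1β, and each panel has its own linear axis from 0. In every panel the in vivo library with IL-1β is below the in vivo library without it, and intervals are apart for Hist1h2ao and Hist1h2ag.

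At 1 h the comparison asked what IL-1β does at the start of the culture, and here poly(A) selection plays no part because both libraries were depleted of ribosomal RNA. Of 30 members compared 2 (6.67%) were counted as higher, against 7.72% of the 933 symbols compared, and none as lower, against 0.214%. The members' share of higher calls was thus near the background. The 30 members compared had a median log2 ratio of -0.12, against 0.30 over all symbols compared. Over the 463 symbols at 5 FPKM in both libraries the median was 0.20. The 2 members counted were Hist1h2ak and Hist2h2ac, both H2A genes, at 18.7 and 19.0 FPKM with IL-1β and listed at 0 without. Their interval without IL-1β was 0 to 0, so the interval part of the rule asked little of them. In the other libraries Hist1h2ak stood between 5.11 and 9.71 FPKM, and Hist2h2ac was above 0 only in vivo without IL-1β, at 4.34 FPKM. The H4 genes that led these libraries had overlapping intervals with and without IL-1β: Hist2h4 stood at 45.9 and 54.2 FPKM, Hist1h4c at 38.5 and 37.3 FPKM, and Hist1h4k at 17.3 and 24.0 FPKM. Hist1h4d stood at 11.2 FPKM (0 to 20.6) with IL-1β against 53.0 FPKM (6.86 to 96.1) without, with overlapping intervals. Hist1h4n stood at 19.6 FPKM with IL-1β against 41.2 FPKM without. By class, the sums with and without IL-1β were 95.7 and 47.2 FPKM for H2A, 4.996 and 10.9 FPKM for H2B, 82.9 and 94.8 FPKM for H3, 209 and 272 FPKM for H4, and 15.6 and 13.6 FPKM for H1.

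The change after injection was read within each culture arm. Without IL-1β the histone sum was 2509 FPKM in vivo against 1839 FPKM at day 3, 1.36 times as high. The median log2 ratio of the 23 members compared was 0.09, against -0.03 over all symbols. The H2A members had a median of 0.00 (11 compared), with Hist1h2ao at 1944 FPKM in vivo and 1311 FPKM at day 3, a log2 ratio of 0.57 under the 2-fold limit, with intervals apart. Of 23 members 1 (4.35%) was counted as higher, against 2.13% of the 8126 symbols compared, and none as lower, against 0.665%. It was Hist1h2bc, an H2B gene, at 13.3 FPKM (4.77 to 20.996) in vivo and 2.22 FPKM (0 to 4.55) at day 3, a log2 ratio of 2.15. Hist1h2bc is annotated with at least 40 bases after the stop and no stem-loop.

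With IL-1β the in vivo library stood below day 3. The H2A sum was 923 FPKM in vivo against 2193 FPKM at day 3, the H3 sum 54.9 against 86.7 FPKM, and the H4 sum 98.0 against 98.4 FPKM. The H2B sum was 60.03 FPKM in vivo against 30.3 FPKM at day 3. Of 33 members compared 3 (9.09%) were counted as lower, against 5.87% of the 8572 symbols compared, and 2 (6.06%) as higher, against 12.0%. The lower ones were Hist1h2ao, at 694 against 1716 FPKM (log2 ratio -1.31), Hist1h2ag, at 86.9 against 200.8 FPKM (-1.20), and Hist1h2ac, at 3.45 against 7.99 FPKM (-1.02). The higher ones were the linker histone gene Hist1h1c, at 6.71 FPKM in vivo against 0.891 FPKM at day 3 (2.03), and the H2A gene Hist3h2a, at 6.22 against 0.678 FPKM (2.11). Both have annotated transcripts that run on past the stem-loop, by 840 and 1643 bases, with 2 AATAAA or ATTAAA signals each, the sequence that marks a poly(A) site. The transcript of Hist1h2ac, counted as lower, also runs on, by 2010 bases with 3 such signals, so this kind of end did not go with 1 direction.

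The 33 members had a median log2 ratio of -0.94, against 0.04 over all symbols, and short transcripts in general were low too. Symbols under 700 bases had a median of -0.57, and 19.1% of them were counted as lower. After the trend on transcript length was removed, 3 of 40 members compared were counted as higher and 0 as lower, against 10.8% and 4.72% of all symbols. The log2 ratio was then -0.52 for Hist1h2ao, -0.42 for Hist1h2ag and -0.92 for Hist1h2ac, and the H2A median -0.45 against -1.19 before. With equal upper quartiles 1 was higher and 1 lower (14.5% and 2.78% of all), and with a pseudocount of 5 the count was 0 higher and 2 lower (7.24% and 3.95% of all). The 2 comparisons of in vivo with day 3 share no library with each other, but each shares its libraries with an IL-1β comparison, so these results are not independent. Both also share the day 3 library of their arm with the comparison of day 3 with 1 h.

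Time and RNA selection cannot be told apart between day 3 and 1 h, and these comparisons describe libraries made in different ways. Nearly every symbol had the higher value at day 3: 95.7% of the 7689 symbols compared without IL-1β and 95.5% of the 7392 with it were counted as higher. The median log2 ratio over symbols at 5 FPKM in both libraries was 3.31 without IL-1β and 3.18 with it. Set against that shift, histone members lay low. Their median log2 ratio was -0.59 without IL-1β (33 compared) and -0.03 with it (37 compared), against 3.44 and 3.25 over all symbols compared. Only 8 of 33 (24.2%) without IL-1β and 10 of 37 (27.0%) with it were counted as higher. At the same time 3 of 33 (9.09%) and 6 of 37 (16.2%) were counted as lower, against 0.299% and 0.595% of all. Among compared symbols with transcripts under 700 bases, members included, 10.4% without IL-1β and 12.9% with it were lower. The share of lower calls in members was near that of short transcripts, but not all lower members are short. By longest annotated transcript, the lower members Hist2h4, Hist1h1c, Hist1h3f and Hist1h3e have 1630, 1560, 1261 and 836 bases. Among symbols of 700 to 1500 bases, 0.131% without IL-1β and 0.125% with it were lower. For 1500 to 3000 bases the shares were 0.0438% and 0.0868%. Of the symbols under 700 bases 66.7% and 60.8% were higher, with median log2 ratios of 3.86 and 3.87.

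The classes divided sharply in this comparison. All 8 members counted as higher without IL-1β, and 8 of the 10 with it, were H2A genes. These were 8 of 11 H2A members compared (72.7%) and 8 of 12 (66.7%), below the 95.7% and 95.5% of all symbols. The H2A medians of 3.16 and 2.93 also lay below the 3.44 and 3.25 of all symbols. With the length trend removed they were -0.87 and -0.53. Hist1h2ag stood at 179 FPKM at day 3 against 2.21 FPKM at 1 h without IL-1β (log2 ratio 5.81) and at 201 against 1.88 FPKM with it (6.13). Hist1h2ao stood at 1716 FPKM at day 3 against 7.31 FPKM at 1 h with IL-1β (7.69), and at 1311 FPKM against a listed 0 without it. Hist1h2ai, Hist1h2ah and Hist1h2ad had log2 ratios from 3.09 to 4.07 across the arms, so they lay within about 1 unit of the shift of all genes. Hist1h2ab, at 38.8 against 1.65 FPKM (3.91), Hist1h2ac (2.23) and Hist1h2ae (1.92) were also counted as higher at day 3 in the IL-1β arm. The ratios of Hist1h2ac and Hist1h2ae lay below the median of 3.25 over all symbols compared in that arm. Hist1h2ae, Hist1h2ak and Hist1h2ac, at 17.9, 8.97 and 5.93 FPKM at day 3 without IL-1β, were listed at 0 at 1 h. The other 2 members higher with IL-1β were Hist1h4i, an H4 gene at 37.8 FPKM against 0.337 FPKM (4.86), and Hist1h2bc, at 5.74 FPKM against a listed 0.

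The lower members were mostly H4 and H3 genes. Hist2h4 stood at 4.06 FPKM at day 3 against 45.9 FPKM at 1 h with IL-1β (log2 ratio -3.21), and was listed at 0 against 54.2 FPKM without. Hist1h4n stood at 2.45 FPKM against 41.2 FPKM without IL-1β (-3.61) and was listed at 0 against 19.6 FPKM with it. Hist1h3e, an H3 gene, stood at 2.65 FPKM against 28.8 FPKM without IL-1β (-3.03). With IL-1β Hist1h1c stood at 0.891 FPKM against 11.4 FPKM (-2.71), and Hist1h4m, Hist2h2ac and Hist1h3f were listed at 0 at day 3 against 23.2, 19.0 and 5.05 FPKM. The H4 sum was 54.0 FPKM at day 3 against 272 FPKM at 1 h without IL-1β, and 98.4 against 209 FPKM with it. The H3 sum was 59.2 against 94.8 FPKM without IL-1β, and 86.7 against 82.9 FPKM with it. Scaled so that the median ratio over all genes was 0, 4 of 40 members were higher and 5 lower without IL-1β, against 44.5% and 2.32% of all symbols. With IL-1β 3 of 46 were higher and 14 lower, against 36.6% and 8.09%. Scaled to equal upper quartiles, 2 of 36 were higher and 5 lower without IL-1β (50.1% and 2.16% of all), and 2 of 42 higher and 14 lower with it (45.7% and 8.46%). With the length trend removed, 1 of 24 was higher and 5 lower without IL-1β (43.8% and 7.73% of all), and 1 of 26 higher and 13 lower with it (47.5% and 11% of all).

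The kind of annotated end did not sort the levels between the 2 kinds of library in a simple way. The 19 members whose transcripts stop within 60 bases of the loop summed to 2083 and 1603 FPKM at day 3, against 145 and 139 FPKM at 1 h, with and without IL-1β. They include Hist1h2ao and Hist1h2ag, and their median level was 4.73 and 3.08 FPKM at day 3, against 5.59 and 2.21 FPKM at 1 h. The 21 whose transcripts run on summed to 142 and 90.9 FPKM at day 3, against 183 and 223 FPKM at 1 h. RNAs known to have no poly(A) tail, such as the 45S ribosomal precursor Rn45s and the RNase P RNA Rpph1, summed to 477 and 328 FPKM at day 3, against 82279 and 81688 FPKM at 1 h. Of the 7 in this list 6 had the lower value at day 3 and 1 the higher. The exception, Rn4.5s, stood at 306 and 160 FPKM at day 3 against 30.3 and 0 FPKM at 1 h, with and without IL-1β. Hist1h2ao and Hist1h2ag thus had far higher values in the poly(A)-selected day 3 libraries, with annotated ends 31 and 23 bases behind the loop and no AATAAA or ATTAAA there.

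A fit over the stages was the only test that the design allowed. limma on log2(FPKM + 1) with stage as a covariate called 0 of 8946 symbols for IL-1β (0%), with a smallest adjusted p of 0.937 and 320 symbols at an unadjusted p under 0.05. Of the 44 members tested 12 had an unadjusted p under 0.05 and 0 were called. Without the 1 h pair, with 1 residual degree of freedom, limma called 34 of 8901 symbols (0.382%), and 5 of 37 members were among them. All 5 reached the 5 FPKM limit only in the arm where they were high, so the filter favoured such differences. Hist1h4h stood at 4.73 and 12.2 FPKM at day 3 and in vivo with IL-1β, against 0.287 and 0.941 FPKM without, a log2 difference of 2.46 (limma, adjusted p = 0.0048). Hist1h2bj was the member lower with IL-1β, at 0.834 and 3.75 FPKM against 6.42 and 13.8 FPKM, a log2 difference of -1.83 (limma, adjusted p = 0.0462). Hist1h4f (limma, adjusted p = 0.000218), Hist2h4 (0.0021) and Hist1h2bf (0.0048) were listed at 0 in both libraries without IL-1β, so that the size of their difference depends on the pseudocount. In all 5 the 2 stages shared the direction. At 1 h Hist1h4h, Hist1h4f and Hist2h4 had the lower value with IL-1β, at 13.5, 5.59 and 45.9 FPKM against 16.8, 13.2 and 54.2 FPKM, and Hist1h2bf and Hist1h2bj were at 0. In each of the 5 the deposited intervals overlapped or touched between the arms at both stages. Without the day 3 pair, and without the in vivo pair, limma called 0 members.

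The genes around these histones give their setting. Of 27 DNA replication and S phase genes, 0 were counted for IL-1β at day 3, and the sums were 1789 FPKM with IL-1β against 1854 FPKM without. In vivo, 5 of 27 (18.5%) were lower with IL-1β, against 3.48% of all symbols compared. There 26 of 27 log2 ratios were below 0, and the median was -0.73. The 5 were Tk1, thymidine kinase, at 30.8 against 99.7 FPKM (log2 ratio -1.66), Lig1, a DNA ligase, at 43.9 against 105 FPKM (-1.24), Cdc6, which loads the helicase, at 6.16 against 15.8 FPKM (-1.23), the transcription factor gene E2f1 at 11.9 against 29.3 FPKM (-1.23), and Rrm2, a ribonucleotide reductase subunit, at 88.0 against 197 FPKM (-1.15). Between in vivo and day 3 with IL-1β, 9 of 27 (33.3%) were lower, against 5.87% of all symbols compared. All 27 log2 ratios were below 0. Tk1 stood at 30.8 against 110.2 FPKM (-1.80) and Gins1, of the replicative helicase, at 8.89 against 27.3 FPKM (-1.52). Without IL-1β none of the 27 was counted between in vivo and day 3, with a median of -0.17.

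Replication-independent histones are compared here as well. At day 3 none of 9 was counted for IL-1β, with a median log2 ratio of 0.39, and the H3.3 gene H3f3a stood at 408 against 241 FPKM (0.76). In vivo 2 of 9 (22.2%) were lower with IL-1β, against 3.48% of all symbols compared. They were Cenpa, the centromeric H3, at 38.6 against 89.3 FPKM (-1.19), and H2afz, which encodes H2A.Z, at 38.3 against 83.9 FPKM (-1.11). Between in vivo and day 3 with IL-1β 5 of 9 (55.6%) were lower, against 5.87% of all, and without IL-1β none was. H2afz at 38.3 against 149 FPKM (-1.93) and H3f3a at 132 against 408 FPKM (-1.62) had the largest ratios. Between day 3 and 1 h all 9 were higher in both arms, as were 95.7% and 95.5% of all symbols without and with IL-1β. Their medians were 5.19 without IL-1β and 5.09 with it, above the shift of all genes.

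Among factors that form and degrade the histone mRNA end, 1 was counted in the 4 comparisons of poly(A)-selected libraries. Slbp stood at 96.2 and 87.3 FPKM at day 3 and at 57.6 and 85.5 FPKM in vivo, with and without IL-1β, and met the rule in none of these comparisons. No gene of this list was counted for IL-1β at day 3 (17 compared, median -0.16) or in vivo (17 compared, median -0.12). Lsm10, a protein of the U7 particle, stood at 12.2 FPKM with IL-1β against 26.0 FPKM without in vivo (-1.03). Between in vivo and day 3 with IL-1β, Zcchc11, which adds uridines to RNA, was higher at 20.98 against 9.84 FPKM (1.02). Between day 3 and 1 h 17 of 17 were higher without IL-1β and 15 of 16 with it, near the 95.7% and 95.5% of all symbols. Among histone chaperones, Chaf1a, of the complex that places H3 and H4 on new DNA, was lower in vivo with IL-1β, at 13.7 against 33.2 FPKM (-1.22), the 1 counted of 19, and Cabin1 was lower at day 3 at 6.77 against 14.7 FPKM (-1.01). Between in vivo and day 3 with IL-1β, 4 of 19 chaperones (21.1%) were lower, against 5.87% of all symbols compared. Nap1l1 was lower the most, at 20.5 against 78.1 FPKM (-1.88), and Cabin1 was higher at 16.3 against 6.77 FPKM (1.16). Without IL-1β none of the 19 was counted.

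**Figure D5:**
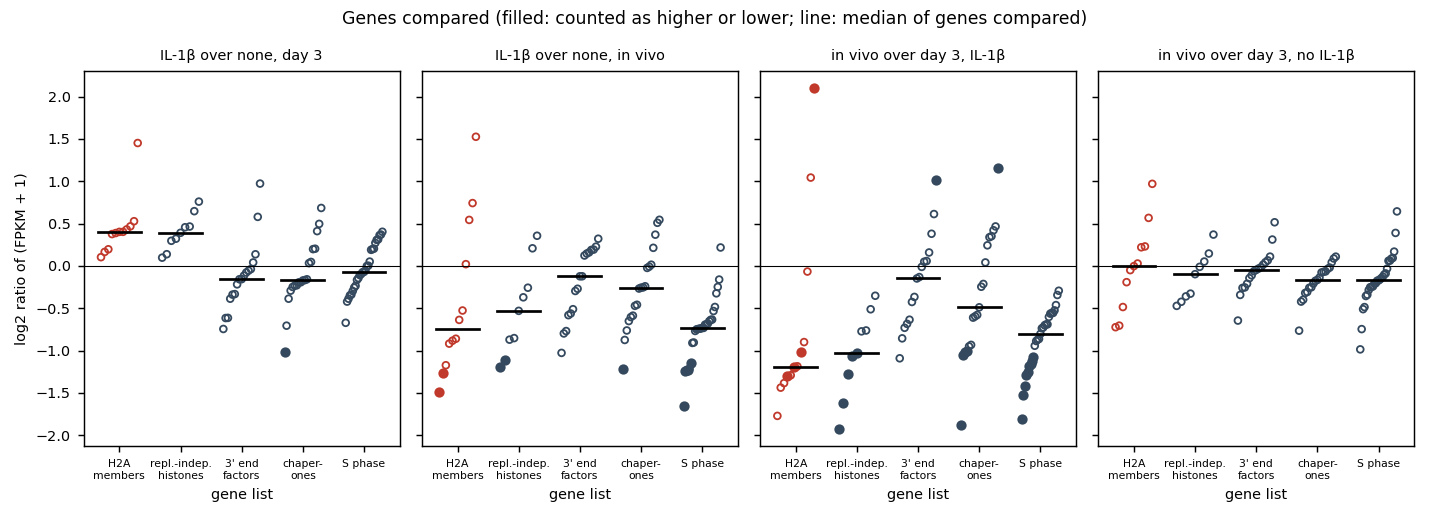
Log2 ratio of (FPKM + 1) of H2A members and of 4 gene lists in 4 comparisons of poly(A)-selected libraries; filled points were counted and bars are medians of the genes compared. For the S phase list 26 of 27 points lie below 0 in the IL-1β comparison in vivo and all 27 in the comparison of in vivo with day 3 with IL-1β.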

How the data were processed

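The authors deposited FPKM per gene and an interval around each value. Alignment tool and build were TopHat and mm9, per the submitters' processing notes. The tool that made the FPKM and the level of the interval: not given in the sources used here. Libraries were sequenced on a MiSeq, per the labels. Depth is unknown, so no counting interval is given, and precision shows only in the deposited bounds. FPKM were used as deposited and summed over entries of a symbol. The members, lists and rules for named genes were chosen with earlier results of these data known. Named are the 5 highest members per stage, the members counted (at most 8 per direction above 0 in both libraries, plus 2 listed at 0 in 1), those limma called, and up to 4 genes per list with the largest absolute ratio, plus every counted gene of the 3′ end list. Slbp and the members set against a pair or a printed sequence were named after their values were seen.

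limma 3.58.1 in R 4.3.3 was fitted on log2(FPKM + 1) over symbols with at least 5 FPKM in 1 library, with Benjamini-Hochberg adjustment at 0.05. The stages stand in for replicates. Sums, ratios and sequence searches used Python 3.11.15 (pandas 2.3.3, numpy 2.4.6, statsmodels 0.14.6), and figures matplotlib 3.10.9. Transcripts came from GENCODE M21 and promoters from the RefSeq table, matched by symbol or synonym; coordinates of files (mm9, starts counted from 1) and references (GRCm38) were kept apart. The size rule and the fit were tested on simulated data. Alternatives were other pseudocounts, no floor, no intervals, scaling by the median ratio or the upper quartile, 1 entry per symbol (chosen after seeing the data), removal of a lowess trend on length, and leaving out a stage.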

Additional observations from a re-analysis of the deposited data

Results flagged for a closer look

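Several values had opposite signs in 2 settings of the same contrast. With 1 library a group these differences were not tested. For IL-1β over no IL-1β, the log2 ratio of the summed histone FPKM was 0.392 at day 3 and -1.13 in vivo. That of the H2A sum was 0.375 at day 3 and -1.35 in vivo, and that of the H3 sum was 0.543 and -0.121. Hist1h2ag had 0.166 at day 3 and -1.26 in vivo, and Hist1h2ao had 0.389 and -1.48. Hist1h4d went the other way, with -3.97 at day 3, where it was listed at 0 with IL-1β so that the value depends on the pseudocount, and 0.195 in vivo. For in vivo over day 3, Hist1h2ag had -1.20 with IL-1β and 0.231 without, and Hist1h2ao had -1.31 and 0.568. These contrasts use the same 4 libraries. With the trend on transcript length removed, Hist1h2ao had -0.21 and Hist1h2ag -0.43 for IL-1β at day 3, so that their signs at day 3 and in vivo no longer differed.

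Entries left out for their status also held signal. The entries of Hist2h2aa2, an H2A gene of the Hist2 cluster, summed to 13.8 FPKM at 1 h with IL-1β and 14.02 FPKM in vivo with IL-1β, against 0 in the libraries without IL-1β and at day 3. Other left-out entries went the other way. A left-out entry of Hist1h4n held 41.2 FPKM at 1 h and 2.45 FPKM at day 3, both without IL-1β, and 0 elsewhere. Its kept entry had the same values in those libraries. Each entry of Hist1h2ap held 2.94 FPKM at 1 h without IL-1β against 0.784 FPKM with it. The entries of Hist2h2aa2 carry the status LOWDATA in the deposited tables and lie at the same places as entries of Hist2h2aa1.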

How the results depend on the processing

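With 1 library a group no paired analysis was possible, other than the limma fit itself, whose stage term compares the arms within each stage. Of 304 recomputed values of members counted, 252 kept direction and call, 40 kept direction only and 12 changed sign. All sign changes lay between day 3 and 1 h. Without IL-1β, removing the length trend gave Hist1h2ad -0.87, Hist1h2ah -0.93 and Hist1h2ai -0.91. With IL-1β it gave Hist1h2ab -0.11, Hist1h2ac -0.20, Hist1h2ad -0.47, Hist1h2ae -1.75, Hist1h2ah -0.59 and Hist1h2ai -0.17. Median scaling gave Hist1h2ac -0.042 and Hist1h2ae -1.05, and equal upper quartiles gave Hist1h2ae -0.83. Both remove the general shift by construction.

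Ignoring the intervals, members counted became 14 at 1 h, 12 at day 3 and 16 in vivo for IL-1β, 5 and 24 for in vivo over day 3 without and with IL-1β, and 29 and 27 for day 3 over 1 h without and with it. The share of all symbols so counted was 29%, 4.97% and 12.5% for IL-1β at 1 h, day 3 and in vivo, 4.16% and 20.6% for in vivo over day 3 without and with IL-1β, and 98.7% and 97.6% for day 3 over 1 h without and with it. For in vivo over day 3 with IL-1β the 5 became 2 with a pseudocount of 5, 2 with equal upper quartiles and 3 without the length trend. For day 3 over 1 h without IL-1β the 11 became 7 with equal upper quartiles and 6 without the length trend. In the other settings members counted stayed within 1.5 times. limma called 5 members without the 1 h pair and 0 otherwise. The histone sums with equal upper quartiles were 1530 and 1652 at 1 h, 1149 and 900.5 at day 3, and 653 and 1340 in vivo, with and without IL-1β. Without the highest member they were 698 and 528 at day 3 and 451 and 565 in vivo. With the highest entry kept they were 1551 and 1182 at day 3 and 1537 in vivo without IL-1β.

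For members above 0 the deposited bounds span a median of 87.8% to 104% of the FPKM to either side, so most differences between single members are not detectable here.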
